A study of Bos taurus with 6 samples.

Results

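Interferon-stimulated genes and the genes of interferon signalling were examined in bovine cumulus cells, the somatic cells that enclose the oocyte. The list named 55 genes, proposed with earlier rFSH over control results of these arrays in view, so the ratios of its members are given as a description and without p-values. A member was included where the array's annotation gave its symbol to at least 1 probe, and the probe with the highest mean raw intensity over all arrays stood for the gene. This gave 43 members of 15229 named genes, and 42 of them had signal above the negative control spots and were measured. PML, a nuclear body protein, did not exceed the negative controls on any array. The other 12 (IFIT1, IFI27, IFI44L, IFITM1, OAS1X, OAS1Y, GBP2, BST2, SP100, SP110, DDX60 and RNF213) had no probe under that symbol and were not analysed here as members.

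The rFSH group was cumulus cells from complexes of slaughtered Holstein cows matured in medium with 0.5 µg/mL recombinant follicle-stimulating hormone. The control group was cumulus cells from complexes matured without it. The medium of both held 1 µg/mL estradiol, serum, pyruvate and gentamicin. Each group had 3 biological replicates, numbered 2, 3 and 4, and the rFSH and control RNA of a number were hybridised together on 2 Agilent arrays with exchanged dyes, 6 arrays in all. The number of cows behind a replicate was not given in the sources used here, so the spread between replicates is that of these RNA extracts. A label of the controls names 6 h, whereas the protocol puts maturation at 22 to 24 h without setting the groups apart. If the times did differ, rFSH and time cannot be told apart.

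Type I interferons bind a receptor made of IFNAR1 and IFNAR2, which activates the kinases TYK2 and JAK1. These phosphorylate STAT2, which acts with IRF9 in a transcription factor complex that turns on interferon-stimulated genes. The products of those genes degrade or bind viral RNA, block viral entry and assembly, or tag proteins with the ubiquitin-like modifier ISG15, and many of them, such as STAT2 and IRF9, feed back on the pathway itself. In cattle the pathway is best known in the endometrium and ovary of early pregnancy, where interferon tau from the conceptus induces it.

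Of the 43794 bovine probes, the share brighter than the negative controls ran from 38.3% to 83.3% over the 12 channel readings. The lowest share was in the control channel of the replicate 2 array with rFSH in Cy3. Ratios of the paired arrays of replicates 2, 3 and 4 correlated at 0.49, 0.72 and 0.71. The replicate 2 array with rFSH in Cy5 correlated at 0.62 and 0.69 with the arrays of replicates 3 and 4 in that orientation. The small number of arrays limits the precision of every value. The cells had the genes that mark their type. Of 15 cumulus and granulosa markers 11 were above the negative controls in all 12 channel readings, among them FSHR, INHA, INHBA, AMH and HAS2, and AMHR2 was in none. HAS2 and CYP11A1 were called higher with rFSH and FSHR lower. Of 13 white blood cell markers with a probe only CD68, a lysosomal protein that other cells also make, was above them in every reading. Of the others CD3E was above them on 6 rFSH and 5 control arrays, and MS4A1 on 6 and 4. PTPRC was above them on 5 arrays in each group, CD4 and CD163 on 4 in each, and ITGAM and NKG7 on none. The remaining markers of this list lay in between. The summed white blood cell signal ran from 1928 to 4886 in rFSH extracts and from 1783 to 3509 in control extracts, and no marker of this list was called. The summed oocyte signal (11 markers) ran from 1680 to 3445 in rFSH extracts and from 1581 to 3819 in control extracts, also with none called. Within replicates oocyte markers were not alike. The log2 ratios of rFSH over control in replicates 2, 3 and 4 were 1.46, -3.14 and 0.22 for ZP2. They were 1.08, -2.67 and 0.03 for ZP4, and 0.77, -1.22 and 0.23 for NLRP5. The remaining oocyte markers spread less between replicates. Of the 9 measured markers of the theca and stroma list 2 were called lower. They were ACTA2, a smooth muscle actin, at -1.29 (log2 of rFSH over control), and MYH11, a smooth muscle myosin, at -0.68. MYH11 was above the negative controls in no rFSH reading and 4 control readings, so it was tested only because of its control signal. The measured markers not called had ratios from -0.14 (COL3A1) to 0.62 (PDGFRA), and the median of the list was -0.03. The summed signal of its 10 markers ran from 15833 to 26998 in rFSH extracts and from 24134 to 31936 in control extracts. The part of other cells in the results below was not tested.

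Interferon members were lower with rFSH far more often than they were higher. Ratios are log2 of rFSH over control, so -1 is a halving with rFSH. Of the 42 members 34 had a mean ratio below 0 and 8 above 0, with a median of -0.67 beside 0.01 over all 13140 named genes measured. The lowest was RSAD2 at -3.10, the 7th lowest of all named genes, and HERC5 at -2.75 was the 12th. At least 2-fold lower were 16 members, where 4.41% of all named genes were, and 22 had all rFSH extracts below all control extracts, where 15.2% did. Ratios below 0 on all 6 arrays were seen in 23 members, where 15.3% of named genes had them. In limma, fitted on all 34831 tested probes with Benjamini-Hochberg adjustment and called at an adjusted p under 0.05, 13 members were called lower (31.0%), where 4.87% of named genes were, and 0 were called higher, where 3.87% were. Over all tested probes the shares called higher and lower were 2.97% and 3.37%, that is 1035 and 1173 probes, and with median centring in place of loess 777 and 1848. Without replicate 2, and likewise without replicate 3, no probe of any gene was called, and without replicate 4 the members called lower were 17. GBP4, 1 of the 13, and UBE2L6 met the signal requirement only through the control extracts. No verdict is read from these counts, since the list was proposed with this contrast known. In bulk RNA, fewer cells of a kind and less RNA per cell cannot be told apart.

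**Figure D1:**
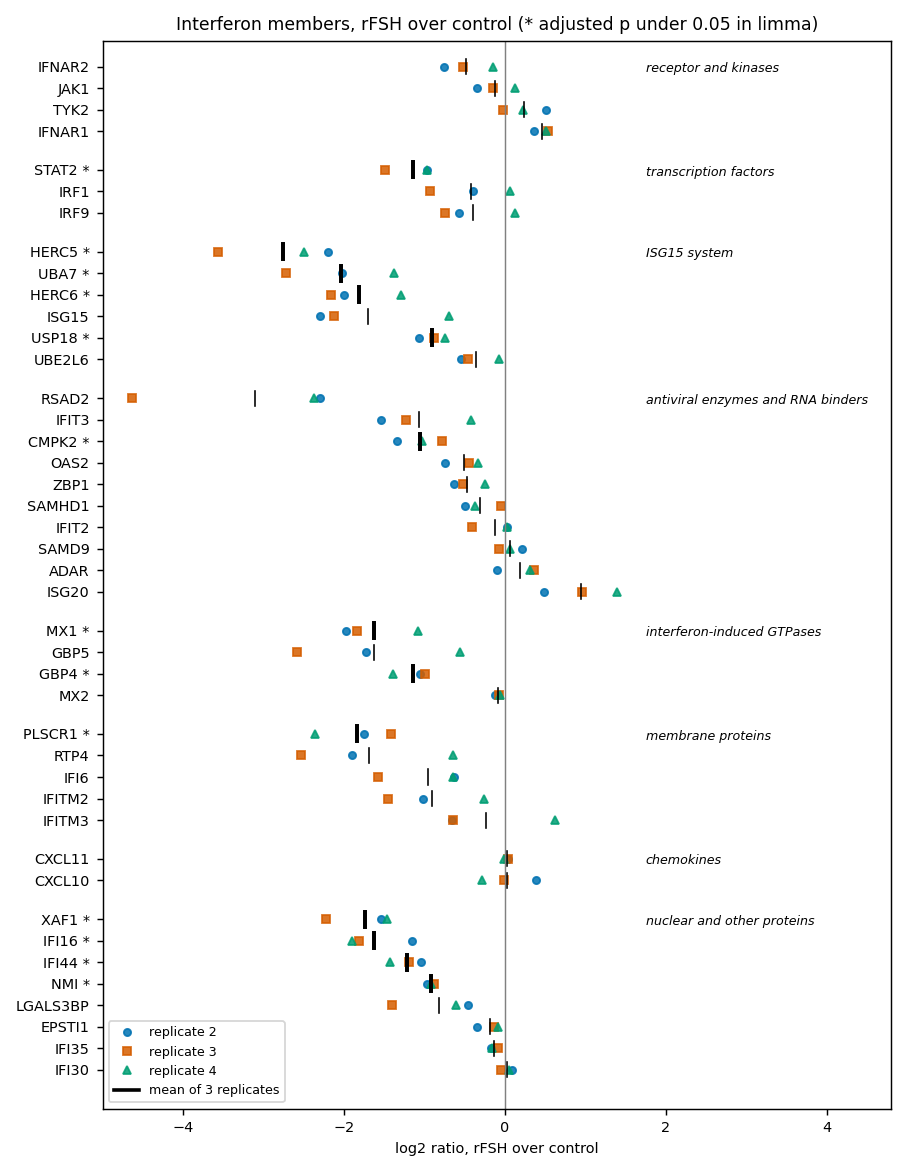
Log2 ratio of rFSH over control (horizontal axis) for the 42 measured members, grouped by role. Points are the 3 replicates, vertical bars their mean, and an asterisk with a thick bar marks the 13 members called lower in limma. Most members lie left of 0, the receptor subunits, kinases and chemokines lie near it, and ISG20 is the member farthest to the right.

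Of the receptor and its kinases, the top of the pathway, none of the 4 was called, and their ratios lay between -0.48 and 0.46. IFNAR1, the subunit that binds TYK2, had log2 intensities of 9.76, 9.82 and 9.36 in rFSH extracts of replicates 2, 3 and 4, against 9.41, 9.29 and 8.85 in control extracts, a ratio of 0.46 ± 0.10 (SD, n = 3). It was above 0 on all 6 arrays by this probe, but its other 2 probes, both dimmer, gave -0.36 and -0.08. The IFNAR1 groups overlapped between replicates, and its direction depends on the probe. IFNAR2, the subunit with the main docking sites for STAT proteins, had 7.27, 7.24 and 7.36 with rFSH, against 8.03, 7.76 and 7.51 in controls. The IFNAR2 groups did not overlap, and the difference was smallest in replicate 4, with a mean ratio of -0.48 ± 0.31. TYK2 (0.24 ± 0.27) and JAK1 (-0.12 ± 0.24) had groups that overlapped, and the sign of JAK1 was positive on the arrays with rFSH in Cy3 alone (0.12). A second JAK1 probe of similar brightness had ratios of -0.63, -0.21 and -0.80 in replicates 2, 3 and 4, and was not called either.

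Of the 3 transcription factors STAT2 was called lower and the 2 interferon regulatory factors were not. STAT2, a signal-dependent transcription factor of the type I response, had log2 intensities of 10.36, 9.77 and 9.51 with rFSH, against 11.33, 11.25 and 10.48 in controls. Every rFSH extract lay below every control extract, and the ratio was -1.14 ± 0.30 (SD, n = 3), a 2.21-fold lower signal. IRF9, the DNA-binding part of the complex, had 8.56, 8.89 and 8.31 with rFSH, against 9.13, 9.64 and 8.18 in controls. Its sign therefore changed in replicate 4 (ratios -0.57, -0.75 and 0.13). IRF1, a factor induced by both type I and type II interferon, did the same, with -0.39, -0.93 and 0.06.

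All 6 members of the ISG15 system had mean ratios below 0. Their median was -1.76, and 4 were called lower, where 4.87% of named genes were. This system works like ubiquitin: UBA7 activates ISG15, UBE2L6 carries it, HERC5 attaches it to new proteins in human cells, and USP18 removes it and also blocks the receptor. HERC5 had log2 intensities of 12.55, 11.33 and 11.41 with rFSH, against 14.75, 14.90 and 13.91 in controls. This was a 6.74-fold lower signal with groups far apart. Its neighbour HERC6, which attaches ISG15 in mice, had 8.97, 8.23 and 8.74 with rFSH, against 10.96, 10.39 and 10.04 in controls (ratio -1.82 ± 0.46). UBA7 had 10.35, 9.97 and 9.16 with rFSH, against 12.37, 12.69 and 10.54 in controls (ratio -2.04 ± 0.67).

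USP18 moved less, with log2 intensities of 8.07, 7.86 and 7.33 with rFSH, against 9.14, 8.75 and 8.08 in controls. Its ratio of -0.90 ± 0.16 (SD, n = 3) was nonetheless called. The small SD holds after both dye orientations are averaged. With rFSH in Cy5 and in Cy3 the ratios were -1.64 and -0.50 in replicate 2. They were -0.96 and -0.81 in replicate 3, and -1.11 and -0.39 in replicate 4. ISG15 itself had 11.62, 11.28 and 10.80 with rFSH, against 13.92, 13.40 and 11.49 in controls. The rFSH extracts of replicates 2 and 3 thus lay on either side of the replicate 4 control, the groups overlapped, and the ratio of -1.70 ± 0.88 was not called although all 6 arrays were below 0. Its dimmer probe gave -0.92, -1.003 and -0.001 in replicates 2, 3 and 4. UBE2L6 was dim, above the negative controls on 2 rFSH and 4 control readings of 6, at -0.36 ± 0.25. Only its control signal met the requirement for testing, so a difference was built into its selection.

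Among 10 antiviral enzymes and RNA-binding proteins the values spread most widely, from RSAD2 at one end to ISG20 at the other. RSAD2, or viperin, makes a nucleotide that stops viral RNA synthesis. It had log2 intensities of 11.75, 9.51 and 9.86 with rFSH, against 14.04, 14.14 and 12.24 in controls. The groups did not overlap, although the replicate 2 extract with rFSH came near the replicate 4 control, and the ratios were -2.30, -4.63 and -2.38. The signal was 8.58-fold lower with rFSH, but this largest ratio of the list was not called, since its replicates differed by an SD of 1.32.

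CMPK2, the gene beside RSAD2 in the bovine RefSeq annotation and the supplier of its nucleotide substrate, was called lower. It had 8.40, 8.15 and 7.23 with rFSH, against 9.74, 8.93 and 8.26 in controls, a ratio of -1.05 ± 0.28 (SD, n = 3). The groups overlapped across replicates, while each rFSH extract lay below its own control. IFIT3, which binds other IFIT proteins that grip viral RNA, had 7.35, 7.76 and 7.09 with rFSH, against 8.89, 8.99 and 7.51 in controls (-1.06 ± 0.58, not called, with overlapping groups). OAS2 (-0.51), ZBP1 (-0.47), SAMHD1 (-0.31) and IFIT2 (-0.12) were lower by less than 1 on the log2 scale, none was called, and none of the 4 was above the negative controls in all 12 readings. SAMD9 (0.07) and the RNA editor ADAR (0.19, and -0.24 by its other probe) lay on the other side of 0.

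ISG20, an exonuclease for single-stranded RNA, was the member that went most clearly the other way. It had log2 intensities of 10.22, 10.71 and 10.43 with rFSH, against 9.74, 9.75 and 9.03 in controls. All 3 rFSH extracts lay above all 3 controls and all 6 arrays were above 0, yet the ratio of 0.95 ± 0.45 (SD, n = 3) was not called. No other member had rFSH extracts wholly above controls, where 12.8% of named genes did.

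**Figure D2:**
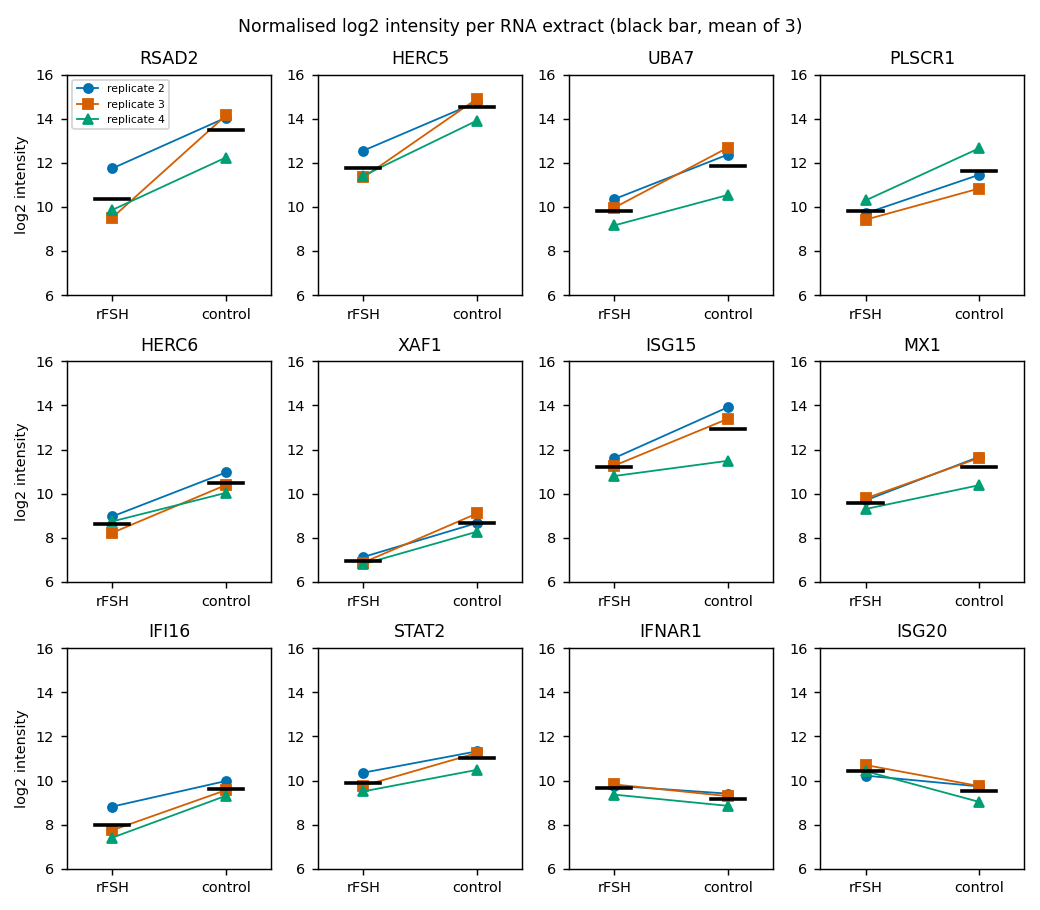
Normalised log2 intensity of 12 members in the RNA extracts of rFSH-treated cells (left) and control cells (right). Lines join the extracts of 1 replicate number and black bars are means of 3. RSAD2 shows the widest gap between the group means, IFNAR1 and ISG20 slope the other way, and the green control points (replicate 4) of RSAD2, UBA7, ISG15 and MX1 sit below the other controls.

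Of the 4 interferon-induced GTPases, proteins that assemble on viral capsids or on membranes around pathogens, 2 were called lower. The share over all named genes was 4.87%. MX1, which blocks influenza-like viruses, had log2 intensities of 9.70, 9.78 and 9.31 with rFSH, against 11.67, 11.62 and 10.38 in controls (ratio -1.63 ± 0.48). Its neighbour MX2 was dim and had -0.09 ± 0.03, and the difference between the 2 ratios was not tested. GBP5 had 8.24, 8.02 and 7.97 with rFSH, against 9.96, 10.60 and 8.53 in controls. The rFSH levels of GBP5 were nearly equal and its control levels were not, so the ratios of -1.72, -2.58 and -0.56 were not called. GBP4 did not exceed the negative controls in any rFSH reading but did in 5 control readings of 6. Its log2 intensities were 6.42, 6.15 and 6.28 with rFSH, against 7.47, 7.14 and 7.67 in controls. With rFSH readings under the lowest detected signal raised to that signal, the mean difference was 2.19-fold. That value is not a lower limit. The ratio in replicate 3 was -0.99, and the mean ratio ran from -2.17 to -0.80 over alternative ways of processing. GBP4 was called, but it was tested only because of its control signal, so a difference was built into its selection.

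Among 5 membrane-bound members PLSCR1 was called lower and the other 4 were not, though all had mean ratios below 0. PLSCR1, a lipid scramblase that enhances the interferon response, had log2 intensities of 9.70, 9.42 and 10.29 with rFSH, against 11.45, 10.83 and 12.65 in controls (ratio -1.84 ± 0.48). Its other 2 measured probes were also called, at -1.57 and -1.63. RTP4, a receptor chaperone that inhibits viral replication, had 9.71, 9.26 and 8.46 with rFSH, against 11.61, 11.80 and 9.10 in controls. RTP4 thus had ratios of -1.90, -2.54 and -0.64 in replicates 2, 3 and 4. IFI6 averaged -0.95 and IFITM2, of the family that stops viral fusion, -0.91. IFITM3 had ratios of -0.66, -0.65 and 0.62, turning over in replicate 4. IFITM genes are near-identical copies, the IFITM3 symbol is not a current RefSeq symbol, and binding of one copy's RNA to the probe of another was not tested.

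CXCL10 and CXCL11, chemokines that interferon induces in many cells, did not differ beyond the replicate spread, at 0.03 ± 0.33 and 0.02 ± 0.03. CXCL10 was above the negative controls on every array in both groups and CXCL11 on 5 of 6 in each. The levels of this neighbouring pair overlapped between the groups.

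Of 8 nuclear and other members 4 were called lower, where 4.87% of named genes were. XAF1, which promotes apoptosis, had log2 intensities of 7.13, 6.88 and 6.81 with rFSH, against 8.67, 9.10 and 8.28 in controls (ratio -1.74 ± 0.42), and was above the negative controls on 3 rFSH arrays and 6 control arrays. IFI16, a DNA sensor, had 8.82, 7.75 and 7.41 with rFSH, against 9.98, 9.57 and 9.31 in controls (-1.62 ± 0.41). IFI44 had 7.18, 6.99 and 6.79 with rFSH, against 8.21, 8.18 and 8.22 in controls. Its controls were almost equal and its ratio was -1.22 ± 0.19. NMI, which binds STAT and MYC proteins, was the most even of the called members, at -0.96, -0.89 and -0.92. LGALS3BP, a secreted glycoprotein, averaged -0.82 and was not called. EPSTI1 (-0.19), IFI35 (-0.14) and the lysosomal reductase IFI30 (0.03) lay near 0.

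The median ratio was farther below 0 in members with brighter signal. The 28 members above the negative controls in all 12 channel readings had a median of -0.92, and 10 of them were called lower, where 8.06% of the 7254 named genes with such signal were. The other 14 had a median of -0.33 with 3 called lower, where 0.934% of the 5886 named genes without such signal were. The medians of all named genes with and without such signal were -0.06 and 0.03. A constant is added to both channels before the ratio is taken, which draws the ratio of a dim probe toward 0. Its part in the difference between bright and dim members was not tested. Of the 10 members with several measured probes, ISG15, NMI, USP18 and XAF1 each had a dimmer probe with a ratio nearer 0. JAK1 and IFITM3 went the other way, with dimmer probes at -0.55 and -0.43 beside -0.12 and -0.23. IFNAR1 and ADAR, like IFI30, had probes on both sides of 0.

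**Figure D3:**
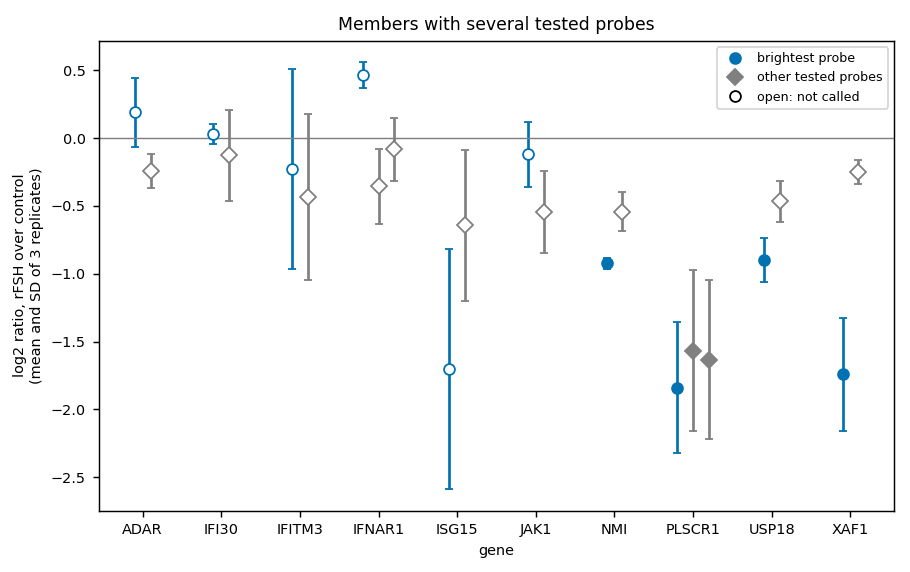
Mean log2 ratio of rFSH over control with SD over 3 replicates for each measured probe of the 10 members that have several. Blue circles are the brightest probe of a gene, grey diamonds the dimmer ones, and filled symbols were called in limma. The 3 PLSCR1 probes lie together, the dimmer probes of ISG15, NMI, USP18 and XAF1 lie nearer 0, and those of JAK1 and IFITM3 farther below it.

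The members' ratios and levels differed between replicates. The median ratio of the 42 was -0.70 in replicate 2, -0.84 in replicate 3 and -0.36 in replicate 4, where the medians of all named genes lay between 0.002 and 0.02. In 22 of the 42 the highest ratio was that of replicate 4. Among the 16 members at least 2-fold lower it was so in 8 (50.0%), against 12.8% of the 579 named genes at least 2-fold lower, most of which had their lowest ratio in replicate 4. Among the 13 members called lower the highest ratio was in replicates 2, 3 and 4 for 4, 4 and 5, and the lowest for 4, 5 and 4. Among the 640 named genes called lower the highest was there for 286, 243 and 111, and the lowest for 154, 140 and 346. Levels also differed in replicate 4. In control extracts replicate 4 was the lowest of the 3 for 34 of 42 members (81.0%, against 41.7% of all named genes and 16.1% of those at least 2-fold lower), and in rFSH extracts for 22 (52.4%, against 41.0%). Over the 16 members at least 2-fold lower, the median log2 intensity in rFSH extracts was 9.33, 8.74 and 8.60 in replicates 2, 3 and 4, and in control extracts it was 11.15, 10.71 and 9.67. These shares are descriptions: members share extracts and are not independent.

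Control extracts varied more than rFSH extracts for 33 of 42 members, or 78.6%. They did so for 59.9% of all named genes and for 82.6% of the named genes at least 2-fold lower. RTP4 had the widest range among controls, 2.70 on the log2 scale, against 1.26 among rFSH extracts. ISG15 followed with 2.43 among controls and 0.82 among rFSH extracts, and GBP5 had 2.06 and 0.27. RSAD2 went the other way, with 2.23 among rFSH extracts and 1.91 among controls.

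**Figure D4:**
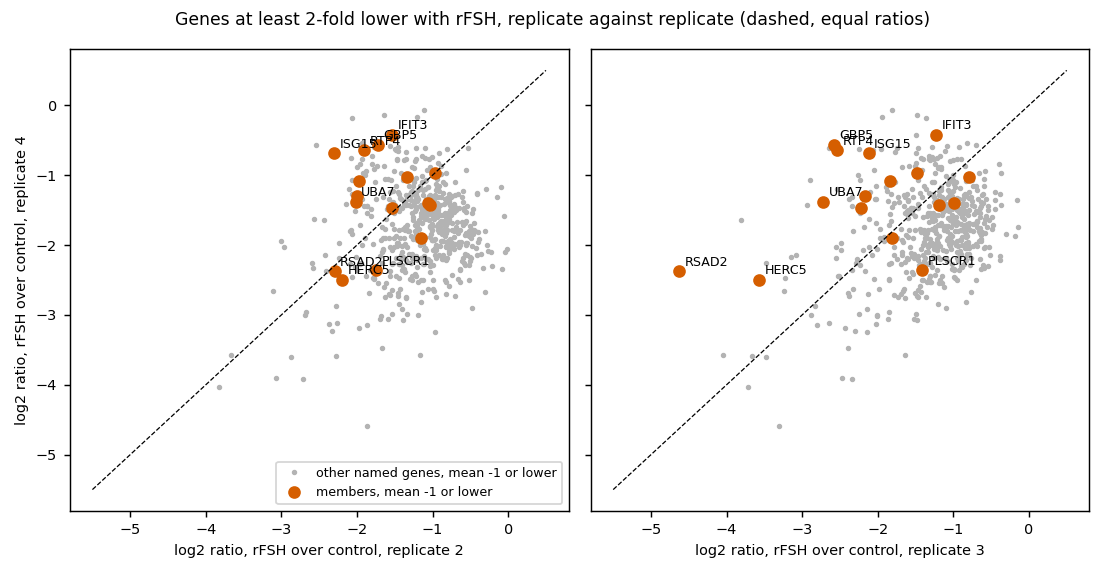
Log2 ratio of rFSH over control in replicate 4 (vertical) against replicate 2 (left) and replicate 3 (right) for named genes with a mean ratio of -1 or lower. Orange points are the 16 members and grey points other genes. ISG15, RTP4, GBP5 and UBA7 lie above the dashed line of equal ratios in both panels, while much of the grey cloud lies below it and PLSCR1 lies below it too.

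Over the 6 array ratios, the gene most like RSAD2 was HERC5, at a Euclidean distance of 1.57. It was followed by CYR61, a secreted matrix protein, at 1.62. The next members were UBA7, XAF1, HERC6 and RTP4, at distances from 3.19 to 3.89. The other named genes nearest to RSAD2 were LOC100298356, LOC782977, SYNE2 and TRIM6, at distances from 1.94 to 2.43. The measure favours genes with ratios of similar size.

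A further list of 71 genes of interferon signalling and response, none under a member's symbol, had 60 genes with a probe and 50 measured. Of these 14 were called lower in limma (28.0%), where 4.87% of named genes were. STAT3 alone was called higher (2.0%), where 3.87% of named genes were. This list too was chosen with earlier results of these data known, so its counts and p-values are descriptions. No verdict is read from them. The median ratio was -0.11. Of the interferons themselves, the probes of IFNB1 and IFNT did not exceed the negative controls on any array, and those of IFNG, IFNK and IFNW1 did so on 3 to 5 arrays in each group, with ratios between -0.10 and 0.05, none of them called.

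The called RNA sensors and enzymes of that list were IFIH1, EIF2AK2 and OAS1. IFIH1, the sensor of long double-stranded RNA, had log2 intensities of 9.85, 8.60 and 9.16 with rFSH, against 13.51, 12.65 and 12.73 in controls (adjusted p = 0.0118 in limma). With a ratio of -3.76 ± 0.25 it was lower than any member. The sensor kinase EIF2AK2 had a ratio of -1.66 ± 0.21 (adjusted p = 0.0195 in limma). Its groups overlapped across replicates, while each rFSH extract lay below its own control. The probe annotated OAS1, an enzyme that makes the activator of RNase L, had -1.94 ± 0.68 (adjusted p = 0.0414 in limma), and 2 of its 3 probes were called. Cattle have several OAS1 copies, and which of them these probes bind was not tested. IFIT5, of the same family as IFIT2 and IFIT3, fell in both of its probes, at -1.75 (adjusted p = 0.0249 in limma) and -1.84.

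PARP9 (ratio -2.86 ± 0.15), DTX3L (-2.01 ± 0.23) and PARP14 (-2.10 ± 0.48), which lie side by side in the annotation, were each called lower, with adjusted p of 0.0118, 0.0151 and 0.0273 in limma. PARP9 and DTX3L form a complex with ubiquitin ligase activity, and PARP14 is an ADP-ribosyltransferase of the same family, as is PARP12 (-2.21 ± 0.84, adjusted p = 0.0449 in limma). TRANK1 (-1.72), TRIM25 (-1.32), an E3 ligase for the RNA sensor RIG-I, and TRIM21 (-1.09), an antibody receptor in the cytosol, were also called lower, with adjusted p of 0.0461, 0.0370 and 0.0431 in limma. The TRANK1 groups overlapped across replicates. B2M, the light chain of class I antigen-presenting molecules, was called by its bright probe (-1.43 ± 0.47, adjusted p = 0.0400 in limma) while its dimmer probe had 0.006. APOL3, an apolipoprotein L, was not called by its brightest probe (0.26, adjusted p = 0.341 in limma), but its other 2 measured probes were called lower, at -1.74 and -1.44.

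Receptors and kinases of neighbouring pathways split. IL10RB, a receptor chain shared by interferon lambda and IL-10, had a ratio of -1.80 ± 0.12 (adjusted p = 0.0138 in limma), with 2 of its 3 probes called and the third at 0.17. It lies between IFNAR1 and IFNAR2 in the annotation, and neither of those was called. The kinase JAK2 had -0.88 ± 0.14 (adjusted p = 0.0293 in limma), with 2 of 3 probes called. STAT3, which carries IL-6 signals, rose, at 0.92 ± 0.16 (adjusted p = 0.0290 in limma), while its other 2 probes had 0.12 and 0.37 and were not called.

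The interferon gamma receptor chain IFNGR1 had ratios of 0.40, 0.43 and 1.53 in replicates 2, 3 and 4 (adjusted p = 0.167 in limma), and IFNGR2 had -0.02, -0.01 and 0.31 (adjusted p = 0.654 in limma). IRF7, the amplifier of interferon production, had -1.21, -1.47 and -0.61 (adjusted p = 0.0529 in limma), so all replicates were below 0 without passing the threshold. SOCS1, a feedback inhibitor of JAK kinases, had 0.70, -0.23 and 0.55 (adjusted p = 0.418 in limma), and SOCS3 was not measured, since its signal exceeded the negative controls on only 2 control readings. The probe annotated ISG12(A), whose current RefSeq symbol is that of the listed member IFI27, had -1.14 ± 0.72 and was not called (adjusted p = 0.106 in limma).

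**Figure D5:**
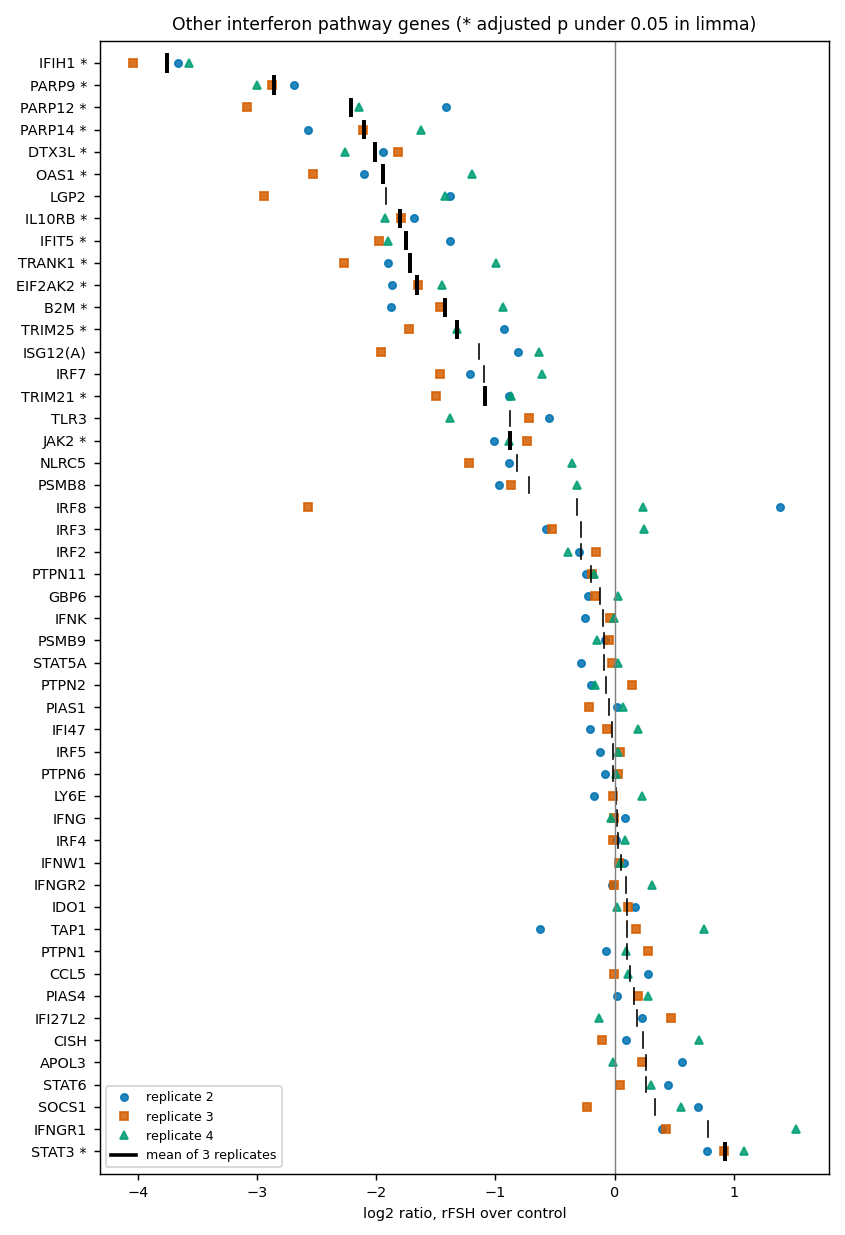
Log2 ratio of rFSH over control for the 50 measured genes of interferon signalling and response outside the member list. Points are the 3 replicates, bars their mean, and asterisks mark genes called in limma. IFIH1 and PARP9 stand at the low end with replicates close together, STAT3 is called at the high end, and IRF8 has replicates on both sides of 0.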

How the data were processed

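The authors deposited 1 scanner table per array with linear spot and background intensity at both wavelengths, not normalized, per the file headers, and a table of normalized log2 ratios made by a method that the sources used here do not give. Set against the scanner values, the deposited log2 ratios held Cy5 over Cy3 on every array, swapped arrays included. Per the labels' protocols RNA was amplified by T7 transcription and labelled chemically.

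Mean pixel intensity was background-corrected with normexp (offset 50, median background). Loess with a span of 0.3 followed, in limma 3.58.1 (R 4.3.3). Spots carrying the deposited ignore mark, per the file headers, were left out. Testing required, on at least 3 arrays of either group, a raw intensity more than 2 SD over the average of 153 negative control spots. Ratios were turned to rFSH over control by the dye labels and averaged per replicate, and 3 values were tested against 0 with Benjamini-Hochberg adjustment. Same-numbered extracts shared arrays, so the test is paired by construction. Log2 intensities per extract came from Aquantile scaling. The fit was tested on simulated data. The 2.19-fold value of GBP4 took the higher, per array, of its own rFSH signal and the lowest detected signal.

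Gene symbols are those of an old platform annotation: 21790 probes had 1 symbol and 22004 were unnamed here. Of the 43 members 42 have a symbol current in RefSeq. RefSeq (ARS-UCD2.0) gave names and neighbours only.

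The members, lists and alternatives were chosen with earlier results of these data known. Values per extract or replicate are given for the 15 members with the largest absolute ratio, any called higher, and 9 signalling members. Of the further list, called genes and the measured or dim ones among 8 chosen genes are named, and 1 is not reported here. ISG20, CMPK2, NMI, IFITM3 and the remaining members named, and IFNT, ISG12(A), APOL3 and IRF8, were added after their values were seen. Marker lists covered 5 kinds of cell. Of 6 measured red blood cell and endothelium markers none was called.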

Additional observations from a re-analysis of the deposited data

Results flagged for a closer look

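Dixon's test was run on 42 sets of 6 array ratios (41 named genes and the median of the members). It found 0 with a single array standing apart, where chance alone would give about 2.1 if arrays were independent. They were not, since the arrays of a replicate measured the same extracts with exchanged dyes. An extract that differs moves both of its arrays and can hide itself from this test. The test therefore cannot decide whether an extract stood apart, and no conclusion is drawn from it.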

How the results depend on the processing

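No called gene of either list changed sign, and of the 13 members called lower 5 (HERC5, HERC6, XAF1, IFI44 and NMI) were called under every one of up to 14 alternatives that kept all replicates and tested them. Another 6 lost the call under 1 or 2, and CMPK2 and UBA7 under 3. RSAD2 was called under 9 of 14. Of the further list, TRANK1 and TRIM21 lost the call under 4, and PARP12, OAS1 and B2M under 3. Members called lower numbered 8 without background correction, 24 when the 6 arrays were fitted with the replicate as a random block and a term for dye, and 6 with no replicate block, where channel values were unpaired. Members called higher numbered 2 with the random block and 1 with offset 0, the authors' values, detection on every array, median pixels or only arrays with rFSH in Cy3. The members' median was -0.92 with detection on every array, which keeps 28 members by construction. The further list had 8 genes called lower without background correction, 9 with plain subtraction and 5 with no replicate block, and 2 called higher with the random block and 0 unpaired. All probes higher and lower numbered 570 and 482 without background correction, 2674 and 3381 with the random block, 468 and 558 unpaired, and 1565 and 1833 with rFSH in Cy5 only. With rFSH in Cy3 only 1575 were higher. Lower probes were 1848 with median centring, 715 with plain subtraction, 2011 with detection on every array and 1863 with offset 0. The cause was not tested unless stated. Without 1 replicate, 0 to 510 probes were higher and 0 to 677 lower, 0 to 17 members were called lower, and the further list had 0 to 13 lower and 0 higher, where fewer samples leave less power: without replicate 2, 6875 probes had an unadjusted p under 0.05 in limma and 0 were called, and without replicate 3, 7399 and 0. The members' median then stayed between -0.79 and -0.54. Values near 0 that turned included IFNGR2 (-0.015 with median centring, and from -0.014 to 0.154 when 1 replicate was left out), JAK1 (0.12 with rFSH in Cy3 only) and IFNAR1 (-0.083 by the median of its probes). CXCL10 (-0.29 to 0.35), IFI30, CXCL11, ADAR, MX2, IFIT2, IFITM3 and SAMD9, none of them called, also changed sign under at least 1 alternative. The 14 members not above the negative controls in every reading rest in part on readings at background.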
